A study of Mus musculus with 14 samples.

Results

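The genes described here act in mitosis and at the kinetochore, the protein assembly on the centromere that holds the spindle microtubules. They were chosen by symbol from a list of 50 genes, through the annotation of the array's probes. Of these, 48 were measured among 16877 genes tested, 43 by 1 probe and 5 by 2 probes that were averaged. Cyclin B1 (Ccnb1) and the kinesin gene Kifc1 had no probe under those symbols. Kif11 was the only measured member without a value on every array.

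RNA came from 12 mammary tumours of mice heterozygous for Brg1 (Brg1+/-), the gene of the chromatin remodelling ATPase Brg1, and was measured on 14 two-colour arrays. Each array compared tumour RNA in Cy5 with a mouse reference RNA in Cy3, and values are read as log2 ratios of tumour over reference, so that 0 means equal to the reference and -1 means 2-fold below it. T172 and T284 had a second array, marked biorep, and the other 10 tumours had 1 array each. All tumours carried the same genotype, with no control tissue compared, so each tumour stands as its own group. The labels carry the word MIXED, with no statement of what was mixed, and do not give age or whether each tumour came from its own animal. P-values therefore speak only of these samples. The test over all tumours sets the spread between them against that of the repeated arrays. The test of 1 tumour sets its distance from the other 11 against the spread among those 11. The arrays held values for 22501 to 22566 of 22575 probes, and the number of arrays limits the precision. T646, whose values stand apart in most of what follows, had a single array. By contrast, T176 stood apart over the whole table, with 643 of 16823 genes called against the other 11 tumours. In bulk RNA, fewer dividing cells and less mitotic RNA per dividing cell cannot be told apart.

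As background, most of these genes are transcribed in waves in dividing cells. The kinase Cdk1 with its A and B cyclins drives entry into mitosis. The spindle assembly checkpoint delays anaphase until all chromosomes are attached, and the anaphase promoting complex then marks cyclin B and securin for destruction. The transcription factors Foxm1 and Mybl2 (B-Myb) are known activators of the late part of this programme. In tumours the same genes are commonly read as markers of proliferation, with Mki67 the gene of the Ki-67 antigen used in pathology.

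Mitosis genes were lowest in T646, and the remaining tumours formed a narrower range. The median log2 ratio over the measured members was -1.84 in T646. It was -0.72 in T2023, -0.68 in T135 and -0.54 in T221. The 2 arrays of T172 had medians of -0.30 and -0.28, and those of T284 had -0.18 and -0.06. T55 stood at 0.01, T372 at 0.10, T920 at 0.11, T2134 at 0.14, T160 at 0.17 and T176 at 0.20. From the repeated arrays of T172 and T284 the SD of this median within a tumour was 0.060. T2023 and T135, and neighbours among the 5 highest tumours, lay no further apart than that. This SD rests on 2 pairs of arrays and is itself imprecise, and differences between tumours in this median were not tested. For each gene the difference of a tumour from the mean of the other 11 was also taken. The median of these differences over all genes was no larger in size than 0.044 in any tumour.

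T646 was the lowest tumour for 38 of the 48 members (79.2%), against 7.47% of all genes. In 19 of these it lay at least 2-fold below the next tumour, which was T2023 for 18 of the 38, T135 for 9, T221 for 5, T172 for 4 and T284 for 2. The highest value fell in T920 for 16 members, in T176 for 11 and in T160 for 9. Against the mean of the other 11 tumours, T646 was lower in 45 of 47 members, with a median difference of -1.80, a level 3.48-fold lower, beside -0.01 over all genes. At least a 2-fold deficit was found in 35 of the 47, against 3.92% of all genes.

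**Figure D1:**
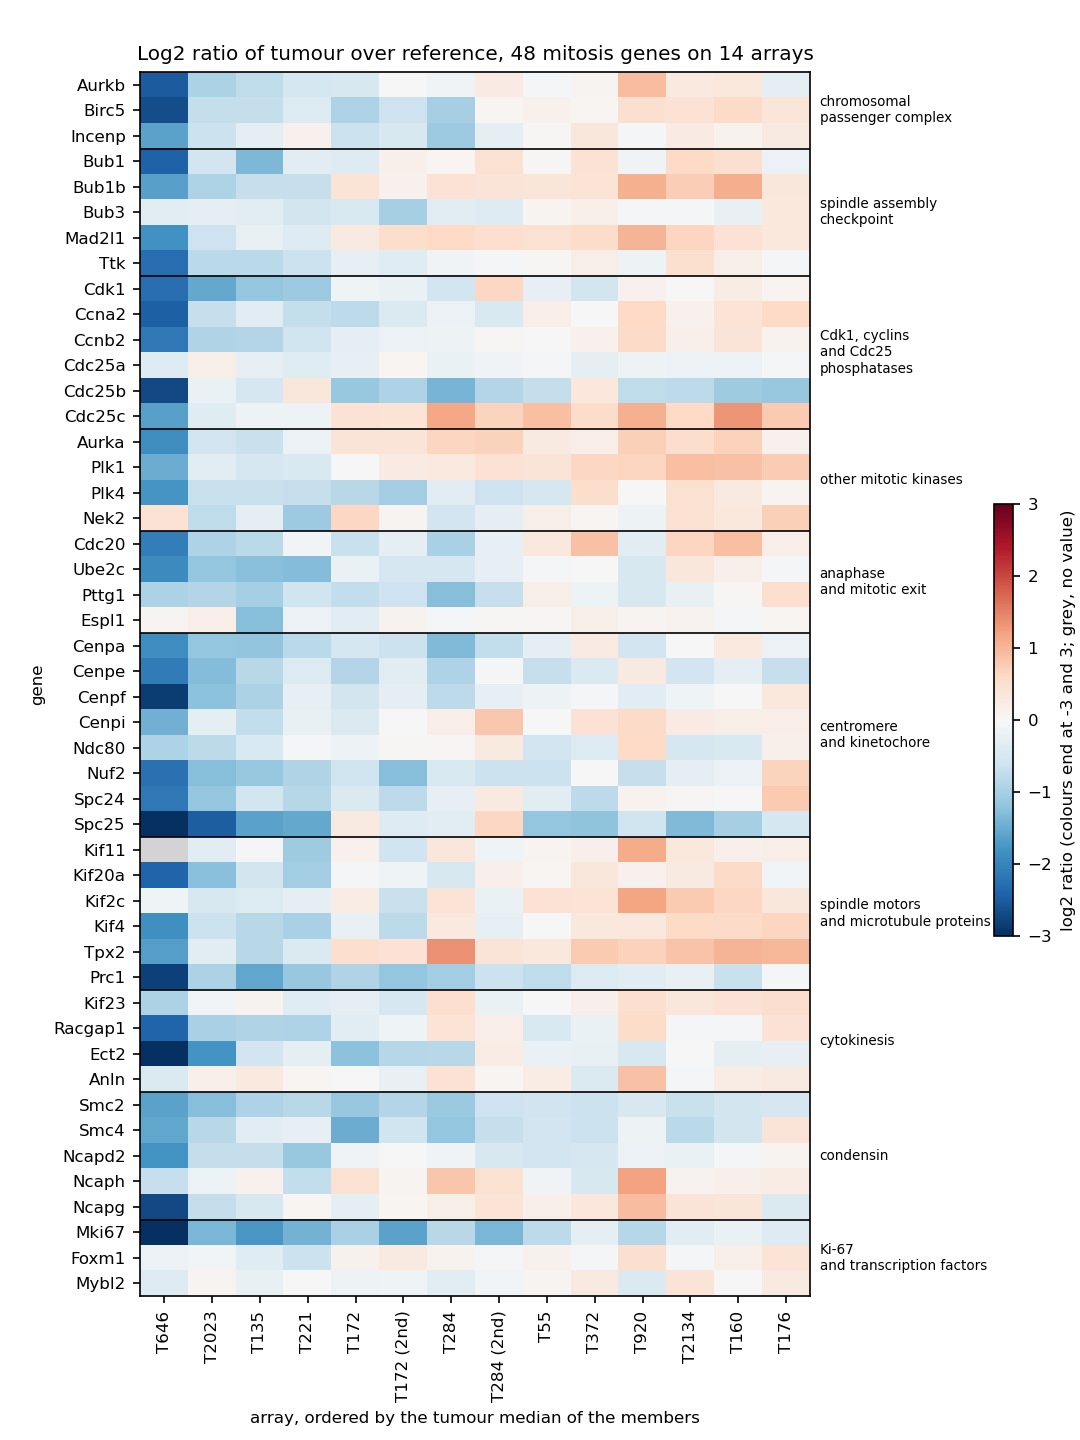
Colour map of the log2 ratio of tumour over reference for 48 mitosis genes (rows, by role) on 14 arrays (columns, tumours ordered by their median over these genes; grey, no value). The T646 column is blue in nearly every row, while Nek2, Espl1, Kif2c, Foxm1 and Cdc25a are pale or red there.

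No single member was called as lower in T646 than in the other 11 by limma's moderated test adjusted over all genes, a comparison in which 0.0356% of genes were called lower. At an unadjusted p under 0.05, 36 of the 47 were lower in T646, against 2.19% of all genes, and 0 were higher, against 3.42%. The smallest adjusted p was 0.0564, for Ncapg, which was lower by 2.79 ± 0.47 (SE, 1 tumour against 11). Cenpf and Ect2 followed (limma adjusted p = 0.0741 for both). A lone array is here assumed to vary like the other tumours. With T2023 left out, Cenpf, Ect2 and Ncapg were called in T646, with T135 left out Bub1, Cenpf and Ncapg were, and with T176 left out or after quantile normalization Ncapg was. In the other settings that held T646, no member was called there. T2023 and T135 were most often the next lowest tumours, so leaving either out can narrow the spread that T646 is set against.

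In the test of all tumours at once, 26 of 48 members differed between tumours by limma's moderated F-test (adjusted p under 0.05), where 18.4% of all genes were called. The counts called in each role group below are to be read beside that same share, and the groups hold only 3 to 8 measured genes. Each of the 26 had its lowest value in T646. The within-tumour spread in this test comes from T172 and T284, the tumours arrayed again. It is moderated: limma draws the within-tumour SD of each gene towards that of all genes. Without T646, Bub1b alone was called (adjusted p = 0.0386), while 17.5% of all genes still were. Adjusted p-values of the 26 ran from 0.00831 for Ncapg to 0.0424 for Plk4, so at a threshold of 0.01 only Ncapg remained. The median SD over tumours was 0.73 for members and 0.39 for all genes, and without T646 it was 0.51 for members and 0.39 for all genes.

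**Figure D2:**
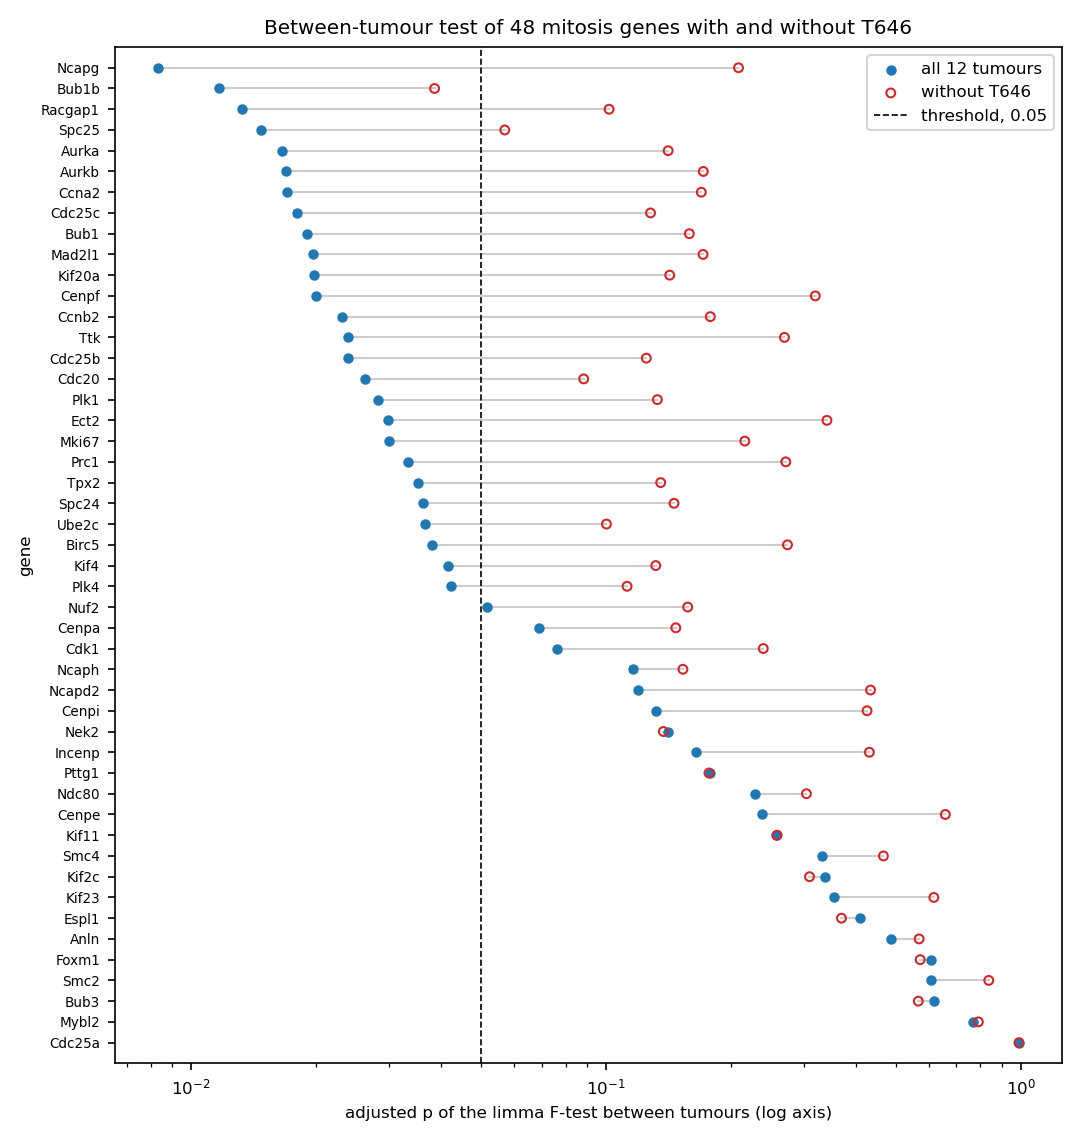
Adjusted p of the limma F-test between tumours for each of 48 genes (rows) on a log axis, with all 12 tumours (filled points) and without T646 (open points), joined by a line. With all tumours 26 genes lie left of the dashed threshold of 0.05, and without T646 only Bub1b does.

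The chromosomal passenger complex corrects faulty attachments of chromosomes to the spindle. Aurkb, its kinase, stood at -2.50 in T646 and -0.95 in T2023, with a median of -0.14 and a highest value of 0.92 in T920 (limma adjusted p = 0.0170 between tumours). Birc5 (survivin), its targeting subunit, was lowest in T646, with a median of -0.17 and a highest value of 0.58 in T160 (adjusted p = 0.0381). In both genes T646 lay apart from the other 11 tumours, whose lowest values were -0.95 and -0.77. Incenp, the scaffold, ranged from -1.60 in T646 to 0.35 in T372 and was not called (adjusted p = 0.165).

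Genes of the spindle assembly checkpoint were also lowest in T646, with the exception of Bub3. Bub1, a kinase that recruits other checkpoint proteins to kinetochores, stood at -2.42 in T646 and -1.35 in T135, with a median of -0.11 and 0.60 in T2134. Bub1b (BubR1), which blocks the anaphase promoting complex, ranged from -1.64 in T646 and -0.93 in T2023 over a median of 0.35 to 1.09 in T160. It was the only member called without T646: T160 and T920 were then highest, and T2023, T135 and T221 lowest. Mad2l1 (Mad2) stood at -1.81 in T646 against -0.63 to 1.01 elsewhere, and the kinase Ttk (Mps1) at -2.28 against -0.82 to 0.48. These 4 of 5 checkpoint genes were called. Bub3, which carries Bub1 and BubR1 to kinetochores, ranged only from -0.73 in T172 to 0.31 in T176, stood at -0.35 in T646 and was not called (adjusted p = 0.617).

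Among Cdk1, its cyclins and the Cdc25 phosphatases that activate it, 4 of 6 measured genes were called. Cyclin A2 (Ccna2) stood at -2.44 in T646 against -0.71 to 0.59 in the other tumours, with a median of -0.15. Cyclin B2 (Ccnb2) stood at -2.14 in T646, with a median of -0.04 and 0.57 in T920. Cdk1 itself ranged from -2.28 in T646 and -1.54 in T2023 to 0.22 in T160 and was not called (adjusted p = 0.0764). Its 2 arrays of T284 read -0.56 and 0.63, the largest difference between repeated arrays of T284 among the members. The 3 phosphatase genes behaved differently from each other. Cdc25c ranged from -1.63 in T646 to 1.32 in T160, with a median of 0.57, and was called. Cdc25b was lowest in T646 (-2.70) and called, but next lowest in T284 (-1.14) and highest in T221 (0.33), where 44 of 48 members lay below the reference. Cdc25a, which also acts at the start of S phase, kept between -0.39 and 0.18 in all 12 tumours (limma F-test adjusted p = 0.989). Its SD over tumours was 0.15, below its moderated within-tumour SD of 0.29. Its own repeated arrays differed by 0.32 in T172 and by 0.08 in T284, second minus first.

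Of the other mitotic kinases Aurka, Plk1 and Plk4 were called and Nek2 was not. Aurka, which matures the spindle poles, stood at -1.86 in T646 against -0.66 to 0.71 elsewhere. Plk1, which acts from mitotic entry to cytokinesis, read -1.49 in T646, -0.49 in T135, -0.45 in T221 and -0.34 in T2023, with a median of 0.38 and 0.89 in T2134 (adjusted p = 0.0283). Plk4, the kinase of centriole duplication, ranged from -1.76 in T646 to 0.52 in T372. Nek2, which splits centrosomes, went the other way in T646: it stood there at 0.43, above its median of 0.12. Its lowest values were -1.08 in T221 and -0.76 in T2023, and its highest 0.71 in T176 (adjusted p = 0.141).

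**Figure D3:**
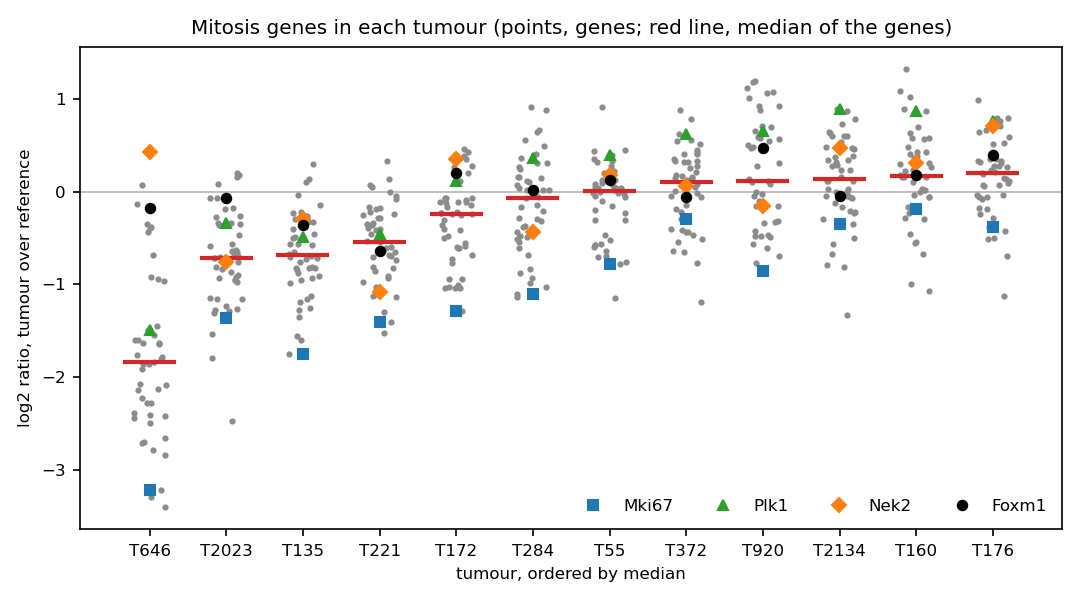
Log2 ratios of the mitosis genes in each tumour (grey points, genes; red line, their median; T172 and T284 are means of their 2 arrays), with 4 genes marked. In T646 the median lies at -1.84 and Mki67 at -3.22, while Nek2 stands at 0.43 and Foxm1 at -0.18.

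Genes of anaphase and mitotic exit split into pairs. Cdc20, the activator of the anaphase promoting complex, stood at -2.08 in T646 and -0.93 in T2023, with a median of -0.20 and 0.89 in T160, and was called (adjusted p = 0.0263). Ube2c, the ubiquitin-conjugating enzyme of that complex, ranged from -1.92 in T646 and -1.30 in T221 to 0.34 in T2134 and was also called. Pttg1 (securin), which restrains separase, stood at -0.94 in T646, close to -0.99 in T135 and T284, and reached 0.51 in T176 (adjusted p = 0.178). Espl1 (separase), the protease that cuts cohesin, stood at -1.28 in T135 and between -0.18 and 0.20 in the other 11 tumours, T646 among them. Between all tumours it was not called by the F-test (adjusted p = 0.410). In the comparisons of single tumours with the other 11 it was the only member called, lower in T135 by 1.31 ± 0.20 (SE; limma adjusted p = 0.0309; 0.0297% of genes were called lower in T135). That share is for T135 alone, and p-values were adjusted within each tumour. Over the comparisons of all 12 tumours, 0.394% of the tests on all genes were called. Against that share, 1 call among the members does not stand out. Espl1 was no longer called when T160, T176, T2134, T284, T372, T55, T646 or the second array of T172 was left out. Nor was it called with only first arrays of T172 and T284.

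At the centromere and kinetochore, all 8 genes were lowest in T646, but 3 were called. Spc25, a subunit of the Ndc80 complex that grips microtubules, had the widest spread of all members: -3.41 in T646, -2.48 in T2023, a median of -1.17 and 0.14 in T284 (adjusted p = 0.0147). Its partner Spc24 stood at -2.14 in T646 and 0.79 in T176 (adjusted p = 0.0362). Nuf2, of the same complex, ranged from -2.23 in T646 to 0.67 in T176 and missed the threshold (adjusted p = 0.0516). Ndc80 itself ranged only from -0.92 in T646 and -0.78 in T2023 to 0.59 in T920 (adjusted p = 0.229). Cenpf, a large protein of the outer kinetochore, stood at -2.84 in T646 against -1.24 to 0.33 elsewhere and was called (adjusted p = 0.0200). Cenpa, the centromeric histone H3 variant, ranged from -1.86 in T646 to 0.30 in T160, the motor gene Cenpe from -2.09 to 0.27, and Cenpi from -1.45 to 0.58; these 3 were not called.

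Of the 6 measured spindle motors and microtubule proteins, 4 were called. Tpx2, which activates Aurora A on the spindle, ranged from -1.64 in T646 and -0.84 in T135 over a median of 0.58 to 1.03 in T160. Prc1, which bundles the central spindle, stood at -2.79 in T646 and at or below -0.06 in all tumours. Kif20a ranged from -2.41 in T646 to 0.58 in T160 and Kif4, a chromosome-bound motor, from -1.84 in T646 to 0.64 in T176. Kif2c, a microtubule depolymerase at centromeres, stood at -0.14 in T646, between its lowest value of -0.47 in T2023 and its highest of 1.19 in T920 (adjusted p = 0.337). Kif11 (Eg5), the motor that separates spindle poles, ranged from -1.06 in T221 to 1.12 in T920, and it had no value in T646.

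Of 4 cytokinesis genes, Ect2 and Racgap1 were called. Ect2, which activates RhoA at the cleavage site, stood at -3.29 in T646 and -1.80 in T2023, with a median of -0.30. Racgap1, the GTPase-activating subunit of centralspindlin, stood at -2.39 in T646 against -0.97 to 0.54 elsewhere (adjusted p = 0.0132). Kif23, its motor subunit, averaged -0.96 in T646, but its 2 probes read -1.90 and -0.02 there. The scaffold gene Anln ranged from -0.44 in T372 to 0.88 in T920, and in T646 its probes read -0.90 and 0.02. Both genes therefore depend on which probe is taken, and neither was called (adjusted p = 0.355 for Kif23 and 0.487 for Anln).

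Condensin, which compacts mitotic chromosomes, had 1 of 5 genes called, near the share of all genes (18.4%). Ncapg, a condensin I subunit, stood at -2.72 in T646 and at -0.72 in the next lowest tumour, T2023, and reached 0.93 in T920. The ATPase subunits Smc2 and Smc4 ranged from -1.60 to -0.49 and from -1.55 to 0.39, each with its lowest value in T646 (adjusted p = 0.607 and 0.333). The probes of Smc2 read -1.98 and -1.22 in T646, and those of Smc4 read -1.04 and -2.06. The probes of each gene had their lowest values in different tumours: T646 and T284 for Smc2, whose probes were not positively correlated over the 12 tumours (r = -0.124), and T172 and T646 for Smc4 (r = 0.606). Their averages therefore depend on the probe taken. Ncapd2 ranged from -1.79 in T646 to 0.07 in T176 and Ncaph from -0.74 in T221 to 1.20 in T920, with -0.69 in T646. Neither was called (adjusted p = 0.119 and 0.116).

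Mki67 had low ratios throughout and the lowest in T646, whereas both transcription factor genes varied little. Mki67 read -3.22 in T646, -1.76 in T135, -1.41 in T221 and -1.36 in T2023, with a median of -0.98 and a highest value of -0.19 in T160 (adjusted p = 0.0300). All 12 values lay below the reference. Foxm1 ranged from -0.64 in T221 to 0.47 in T920 and stood at -0.18 in T646 (limma F-test adjusted p = 0.607). Its SD over tumours was 0.31, against a moderated within-tumour SD of 0.28. Its own repeated arrays differed by 0.14 in T172 and by -0.18 in T284, second minus first. Mybl2 ranged from -0.43 in T920 to 0.38 in T2134, with -0.39 in T646 (adjusted p = 0.770).

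Members moved together over the tumours. Among the 47 members measured in every tumour, the mean of 1081 pairwise correlations over 12 tumours was 0.633, and 1060 of them were above 0, against a mean of 0.002 among all genes. Without T646 the mean was 0.480 over 11 tumours. All points share the same arrays and reference, so this is a description. Ccnb2 (r = 0.989) and Plk1 (0.980) followed the mean of the other members most closely and kept to it without T646 (0.971 and 0.972). Nek2 (0.183), Espl1 (0.191) and Cdc25a (0.293) followed it least. Without T646, Nek2 (0.700) and Espl1 (0.489) followed it more closely. Cdc25a did not (-0.143), and Cdc25b, at 0.408 with all tumours, then ran opposite to it (-0.474).

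Of genes whose products act together, or a regulator and a target, 6 pairs were tested over the 12 tumours. The permutations test against no relation, while pairs among the 47 members averaged r = 0.633, and 0.480 without T646. A small p therefore does not set a pair apart from other members. Aurkb and Birc5 were correlated (r = 0.919, permutation p = 0.00027, adjusted over 6 relations 0.00162; rho = 0.811, p = 0.00222, adjusted 0.0133). Without T646 and T920, the 2 tumours farthest from the median of Aurkb, r was 0.738. Smc2 and Smc4 were also related (r = 0.743, permutation p = 0.00554, adjusted 0.0166; rho = 0.762, p = 0.00549, adjusted 0.0165), with r = 0.556 without T646 and T2023. That relation was lost without T646 (r = 0.560, permutation adjusted p = 0.146) and with 1 probe per gene (r = 0.517, adjusted p = 0.165). For Foxm1 with Plk1, r was 0.618 (permutation p = 0.0337, adjusted 0.0673) and rho 0.671 (p = 0.0210, adjusted 0.0421); r was 0.610 without T221 and T920, and 0.711 without T646 (permutation adjusted p = 0.0385). Ndc80 with Nuf2 (r = 0.465, permutation p = 0.127, adjusted 0.190; rho = 0.448, p = 0.147, adjusted 0.221) was not called, with r = 0.651 without T920 and T284, and 0.231 without T646 (permutation adjusted p = 0.591). Bub1 with Bub3 (r = 0.294, permutation p = 0.355, adjusted 0.426; rho = 0.364, p = 0.246, adjusted 0.296; r = 0.254 without T646 and T135) was not called either. Mybl2 with Foxm1 gave r = 0.001 (permutation p = 0.996, adjusted 0.996) and rho = -0.021 (p = 0.957, adjusted 0.957), with r = 0.259 without T920 and T646.

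Promoter sequences of members that move together are shown because such genes are known to share the cell cycle homology region (CHR), a short element bound by the DREAM and MuvB complexes, and CCAAT boxes bound by NF-Y. Of the 48 measured members, 39 matched by symbol in the RefSeq promoter table of build GRCm38.p6, which runs from 250 bases before to 50 after each gene's start. The CHR was searched as TTTGAA or TTCGAA and the CCAAT box as CCAAT, on both strands. At least 1 CHR match lay in 28 of 39 members (71.8%), against 19.4% of 27025 promoters of the same length, and a CCAAT match in 29 of 39 (74.4%) against 37.9%. Both were found in 25 of 39 (64.1%), against 7.70% of all promoters. Of the promoters of members called between tumours, 17 of 20 held a CHR match, and of those not called 11 of 19 did.

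The 3 members with a promoter in the table that followed the mean of the others most closely are given first, and the 3 that followed it least after them, 5′ to 3′ on the gene's strand. Capitals mark the CHR and CCAAT matches on either strand. Ccnb2 lies on the minus strand at chr9:70421505-70421804, Plk1 on the plus strand at chr7:122159185-122159484 and Ttk on the plus strand at chr9:83834439-83834738. Nek2 lies on the plus strand at chr1:191821223-191821522, Espl1 on the plus strand at chr15:102296043-102296342 and Cdc25a on the plus strand at chr9:109875329-109875628.
Ccnb2: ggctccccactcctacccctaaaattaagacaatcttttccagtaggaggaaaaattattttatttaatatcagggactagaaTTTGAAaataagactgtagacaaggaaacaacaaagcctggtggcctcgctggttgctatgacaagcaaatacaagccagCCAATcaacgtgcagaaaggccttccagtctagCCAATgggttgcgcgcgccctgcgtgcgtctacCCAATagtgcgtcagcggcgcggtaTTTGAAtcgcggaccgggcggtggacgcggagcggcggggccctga
Plk1: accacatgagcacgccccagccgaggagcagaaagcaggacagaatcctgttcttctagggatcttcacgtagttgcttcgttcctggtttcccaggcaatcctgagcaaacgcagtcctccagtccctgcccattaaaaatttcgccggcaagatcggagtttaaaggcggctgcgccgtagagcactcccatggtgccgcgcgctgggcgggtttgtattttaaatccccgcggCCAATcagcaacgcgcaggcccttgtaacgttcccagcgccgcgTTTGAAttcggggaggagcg
Ttk: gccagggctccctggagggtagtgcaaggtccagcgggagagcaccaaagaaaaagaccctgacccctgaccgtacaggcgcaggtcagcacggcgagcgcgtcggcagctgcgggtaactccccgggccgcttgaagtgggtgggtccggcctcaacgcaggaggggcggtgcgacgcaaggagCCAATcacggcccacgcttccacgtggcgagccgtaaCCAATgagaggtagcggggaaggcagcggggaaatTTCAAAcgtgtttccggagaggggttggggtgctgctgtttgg
Nek2: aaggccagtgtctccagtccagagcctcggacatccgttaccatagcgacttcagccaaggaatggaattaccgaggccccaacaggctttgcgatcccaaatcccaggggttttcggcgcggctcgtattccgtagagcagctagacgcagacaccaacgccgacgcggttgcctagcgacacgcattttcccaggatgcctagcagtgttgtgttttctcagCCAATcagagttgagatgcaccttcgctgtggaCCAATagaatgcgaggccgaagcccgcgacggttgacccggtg
Espl1: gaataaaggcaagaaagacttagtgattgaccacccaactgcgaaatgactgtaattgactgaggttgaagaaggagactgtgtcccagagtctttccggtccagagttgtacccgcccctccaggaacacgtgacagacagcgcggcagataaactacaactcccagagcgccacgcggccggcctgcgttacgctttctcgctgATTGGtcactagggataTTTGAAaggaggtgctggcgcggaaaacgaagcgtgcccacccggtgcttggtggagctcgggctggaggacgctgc
Cdc25a: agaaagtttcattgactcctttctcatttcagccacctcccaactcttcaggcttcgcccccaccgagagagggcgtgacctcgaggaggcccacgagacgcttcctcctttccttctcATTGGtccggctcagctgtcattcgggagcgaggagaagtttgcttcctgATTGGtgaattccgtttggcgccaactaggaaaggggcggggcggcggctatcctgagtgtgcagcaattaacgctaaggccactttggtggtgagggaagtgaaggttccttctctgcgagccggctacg

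Ccnb2 held 2 CHR and 3 CCAAT matches, Plk1 held 1 of each, and Ttk held 1 CHR and 2 CCAAT matches. Nek2 and Cdc25a held 2 CCAAT matches each and 0 CHR matches. Espl1, whose level followed the other members weakly (r = 0.191, and 0.489 without T646), held 1 of each. In Birc5 and Mad2l1, which followed the others closely (r = 0.959 and 0.952), these letters were not in this window. A match is a description of the sequence and was not tested against the array values.

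The lists of DNA replication and of other mitosis genes had their lowest means in T646. Of 28 measured S phase and replication genes, 22 were lowest in T646, with a list mean of -1.20 there and -0.38 to 0.53 in the other 11. Between tumours 9 of the 28 were called (32.1%), against 18.4% of all genes. Rrm2, a subunit of ribonucleotide reductase, ranged from -2.38 in T646 to 1.04 in T284, Prim1 (primase) from -2.11 in T646 to 0.89 in T920, and Gins1, of the replicative helicase, from -1.69 in T646 to 1.01 in T920. Ccne2 (cyclin E2) was lowest in T221 at -1.88, with -1.79 in T646. Of 45 other mitosis genes, 27 were lowest in T646 (list mean -1.11, elsewhere -0.45 to 0.31) and 13 were called (28.9%). Spag5, a spindle protein, ranged from -1.99 in T646 to 3.27 in T284, the kinase gene Pbk from -2.34 in T646 to 1.32 in T2134, Melk from -1.85 in T646 to 1.34 in T2134, and Nusap1 from -2.71 in T646 to 0.34 in T284. Without T646, 2 of the 28 replication genes and 3 of the 45 other mitosis genes were called, against a larger share of all genes, 17.5%.

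**Figure D4:**
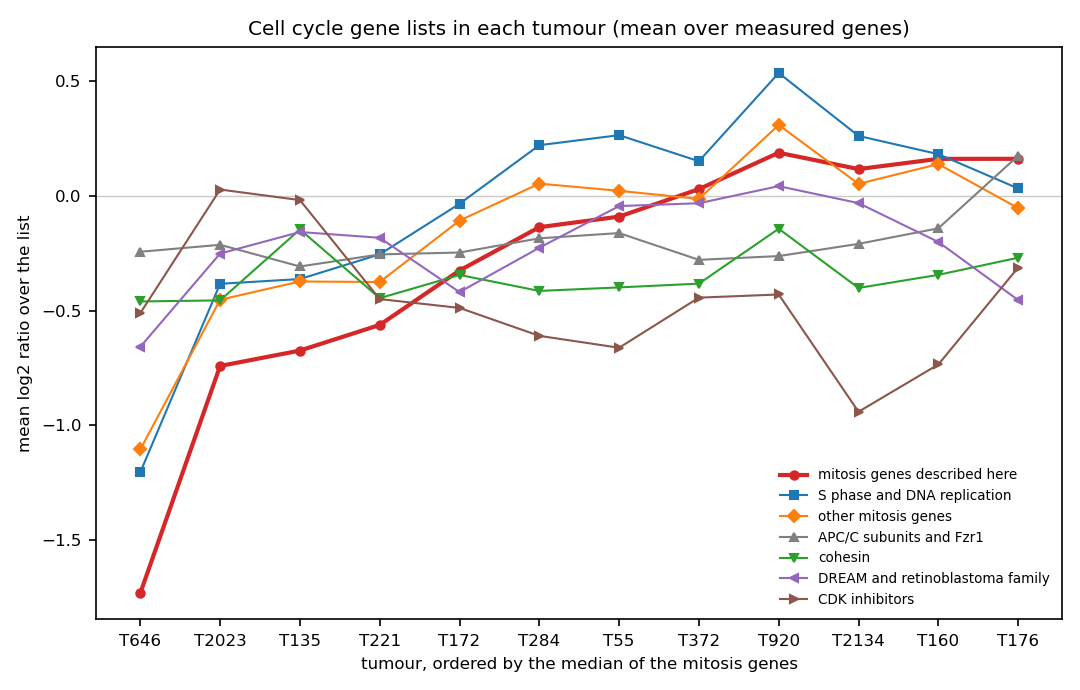
Mean log2 ratio over the measured genes of 7 cell cycle lists in each tumour, with tumours ordered by the median of the 48 mitosis genes; lines only join points of a list. The mitosis and replication lists are lowest in T646 (-1.20 for replication), while the anaphase promoting complex and cohesin lists stay within the range of the other tumours or just below it.

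None of 13 subunits of the anaphase promoting complex with Fzr1, and none of 9 cohesin genes, was called by the limma F-test, and 1 of the 13 and 0 of the 9 had an unadjusted p under 0.05. Over all genes 18.4% were called and 30.4% had such a p, so with 13 and 9 genes few calls would be found at that share. Their list means in T646 were -0.24 and -0.46, against -0.31 to 0.17 and -0.46 to -0.14 in the other tumours. Of 14 genes of the DREAM complex and the retinoblastoma family 3 were called (21.4%), a share near that of all genes, with a list mean of -0.66 in T646 and -0.45 to 0.04 elsewhere. E2f2 ranged from -2.60 in T176 to 0.22 in T135, with -1.96 in T646, E2f8 from -2.04 in T646 to 0.75 in T372, and Rb1 was lowest in T172 and highest in T221 (0.32), with -1.73 in T646. Of 8 CDK inhibitor genes only Cdkn2b (p15) was called, at 2.03 in T646 and 2.20 in T135 against a lowest value of -0.09 in T176 (limma adjusted p = 0.0402, and 0.0531 without T646). The list mean of the CDK inhibitors in T646, -0.51, lay within that of the other tumours.

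The 10 genes outside the list whose pattern over 12 tumours was most like the mean of the members were Cdca8, Tyms, Nusap1, Melk, Sgo1, Depdc1b, Blm, Mcm10, Cdca5 and Asf1b, with r from 0.963 to 0.937, against a median of 0.007 over 16524 genes. Of these, 7 belonged to the replication or other mitosis lists. Cdca8 (borealin), a further chromosomal passenger, led with r = 0.963, and 0.905 without T646.

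Lymphocyte and endothelial markers had their highest means in T646. The mean of 8 measured T and B lymphocyte markers was 0.94 in T646 against -0.68 to 0.73 in the others, and 5 of the 8 were highest there. The mean of 5 endothelial markers was -0.25 in T646 against -1.29 to -0.36, with 1 of 5 highest there, and that of 4 macrophage markers was 1.13 against -0.95 to 1.15, with 1 of 4 highest there. Fibroblast and matrix markers (-1.68, elsewhere -3.67 to 0.02), adipocyte markers (-4.02, elsewhere -4.13 to -1.22), skeletal muscle markers (-3.36, elsewhere -3.71 to -1.29) and erythroid markers (-2.23, elsewhere -3.02 to -1.06) were within the range of the other tumours. Luminal markers, which check the epithelial origin, averaged 1.18 in T646 and 0.78 or more in every tumour but T176, at -3.80. Basal markers averaged -2.53 in T646 against -2.94 to 2.71 elsewhere. The part of these cell types in the low mitotic ratios of T646 was not tested.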

How the data were processed

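Tumour and reference RNA from 12 tumours were compared on 14 two-colour arrays. The authors deposited a value per probe and array on a log2 scale, read here as tumour (Cy5) over reference (Cy3), since the labels name these dyes. Values span -9.19 to 7.42, from which base 2 was inferred, and array medians of 0 to 0.018 look centred. Not given in the sources used here are the scanner, background correction and normalization. The array has 22575 probes, of which 18658 are annotated with 1 symbol, 30 with more and 3887 with none. Symbols were updated through RefSeq (GRCm38.p6) for 18445 probes by Entrez identifier and 24 by accession. Probes of a gene were averaged, and genes needed a value on 12 arrays.

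Tests used limma 3.58.1 in R 4.3.3 on all genes, with Benjamini-Hochberg adjustment: a moderated F-test over tumours on 14 arrays, and each tumour against the other 11 after averaging the repeated arrays. Kif11 was tested without T646, where it had no value. Relations used 100000 permutations, two-sided, in Python 3.11.15 with scipy 1.17.1. Both limma tests were first run on simulated data. Alternatives were 1 probe per gene, quantile normalization, complete genes, a robust prior, a replicate block, first arrays only and leaving out each tumour or array. Values are given for the members with the largest and smallest SD in each role and for Mki67, Foxm1, Mybl2, Cdk1, Plk1 and Aurkb; Ccnb1, also named by this rule, was not measured. Other members are given by range, and up to 4 called genes of each further list are named. Members and lists were chosen with earlier results of these data known, and members named beyond this rule after their values were seen.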

Additional observations from a re-analysis of the deposited data

How the results depend on the processing

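The count of 26 members called between tumours depended on T646: leaving out single tumours or arrays gave 1 to 29, with 1 without T646 and 24 to 29 otherwise. At an adjusted p under 0.01 it was 1. With a replicate block for first or second array, 40 members were called, the 26 among them, but so were 43.0% of all genes, on 1 residual degree of freedom. Second minus first differences of T172 and T284 correlated at 0.324 over 16474 genes, and the labels do not say what the second arrays share. Members called in 1 tumour against the other 11 numbered 1, 2 after quantile normalization, 0 with first arrays only, 0 at an adjusted p under 0.01, and 0 to 4 when single tumours or arrays were left out. Leaving out tumours or arrays moved r of Foxm1 with Plk1 between 0.575 and 0.711, and that of Smc2 with Smc4 between 0.560 and 0.778. With 1 probe per gene the latter was 0.517. Quantile normalization moved the member difference from -1.80 to -1.96 in T646, from -0.32 to -0.40 in T221 and from 0.16 to 0.25 in T284. The F-test could not be run on first arrays only, which leave no spread within a tumour. Signal levels over background were not analysed here.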

Other observations

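Low mitotic ratios outside T646 went with high basal epithelial ratios in 3 tumours. The basal markers Krt5, Krt14, Krt17 and Trp63 averaged 2.71 in T2023, 2.20 in T221 and 2.11 in T135, where the members' medians were -0.72, -0.54 and -0.68. In T372 the basal mean was 1.71, but the members' median was 0.10. In the other 8 tumours the basal mean lay at 0.31 or below. Among these, T646 had the lowest members' median, -1.84, but a basal mean of -2.53. T172 had the lowest basal mean, -2.94, with a members' median of -0.24 after its arrays were averaged. The pattern in the 3 tumours was noticed in the values and was not tested.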
